A study of Mus musculus with 24 samples.

Results

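The genes described here are 7 transcription factor genes linked to self-renewal of haematopoietic stem cells: Hlf, Mecom, Meis1, Prdm16, Hoxa9, Hoxa10 and Hoxb4. Their chromatin was read from a table of ATAC-seq counts, which counts sequenced DNA cut by the Tn5 transposase at accessible sites. A region was assigned to a gene where it overlapped the gene body, or where the nearest end of a protein-coding gene, within 50 kb, belonged to that gene. By this rule 8 of the 13910 regions belonged to 4 of the genes: 4 to Meis1, 2 to Hlf, 1 to Mecom and 1 to Prdm16. Hoxa9, Hoxa10 and Hoxb4 had 0.

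Wild-type (WT) mouse bone marrow carrying the CD45.1 allele had been transplanted into young CD45.2 recipients that were either WT or IκB–, a recipient genotype whose allele the labels do not describe. IκB proteins are inhibitors that hold the transcription factor NF-κB in the cytoplasm. After 13 to 15 weeks, 4 donor subsets were sorted from femur and tibia: long-term stem cells (LT-HSC, called HSC here) and the multipotent progenitors MPP2, MPP3 and MPP4. All subsets were CD45.1+, negative for lineage markers, Sca1+ and high in cKit. MPP2 were Flt3– CD150+ CD48+, MPP3 were Flt3– CD150– CD48+, MPP4 were Flt3+, and the HSC gate is written in the labels as Flt3– CD150– CD48–, although long-term HSC are usually sorted as CD150+. Each of the 8 groups held 3 libraries made from 500 to 1500 cells. In all 24 libraries the cells carrying the genes below were WT donor cells, and the recipients differed. The labels do not say whether replicates came from separate mice, so p-values measure the spread between these samples, which may be technical.

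Long-term HSC renew themselves while giving rise to all blood lineages, and the MPP subsets downstream renew little, MPP2 leaning towards megakaryocyte and erythroid cells, MPP3 towards myeloid cells and MPP4 towards lymphoid cells. Hlf, Mecom (Evi1), Meis1 and Prdm16 encode factors that HSC need to persist or to stay quiescent. Hoxa9, Hoxa10 and Hoxb4 are homeobox genes whose forced expression expands HSC, and Meis1 is a homeobox cofactor that binds DNA together with Hox and Pbx proteins.

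The libraries held 121599 to 963699 counts over the 13910 regions, of which 13496 to 17356 lay on the mitochondrial genome. Depth differed between subsets: HSC had 121599 to 255584 counts, MPP2 146732 to 690277, MPP3 292114 to 963699 and MPP4 140166 to 365067. WT MPP3 replicates 2 and 3 did not differ beyond sampling noise (a chi-square test over 13126 regions gave a ratio of 1.005 to its degrees of freedom, p = 0.348, against ratios of 1.31 to 4.12 for the other pairs within a group), and were summed and counted as 1 replicate. IκB– HSC replicate 3 lay farthest out on the first principal component. The main differences of the Meis1 sum, of Meis1 regions 2 and 3 and of Prdm16 are given with and without it, and the other Meis1 values only with it. Without it, 1478 in place of 957 of all tested regions passed for any difference between subsets, 796 in place of 343 for MPP3 against HSC, 161 in place of 231 for the mean difference between recipient types and 1 in place of 4 for MPP2 against HSC, with 0 member regions in each. Of the genes behind the sort gates, Ptprc, Kit, Slamf1 and Flt3 had regions, and those of Ly6a and Cd48 were not analysed here. At Slamf1, which encodes CD150, HSC had 22.6 ± 17.7 CPM (counts scaled to the library size by the TMM method, SD, n = 6), MPP2 19.0 ± 12.1, MPP3 2.98 ± 3.81 (n = 5) and MPP4 12.3 ± 12.9. The HSC mean was thus not below that of MPP2 at the gene whose product the written gate excludes, but these values lie near the counting floor. HSC replicates ranged from 8.87 to 54.7 CPM, and 3 counts equal 11.7 to 24.7 CPM of the library total in the HSC libraries. The means also join 2 recipient types, which differed at Slamf1 as given below. Flt3 had its highest mean in the Flt3+ gated MPP4, at 174 ± 65.6 CPM against 91.2 ± 30.9 in HSC.

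The start sites of Meis1 and Hlf were each covered by a region, and the RefSeq promoter windows (GRCm38.p6, the build called mm10 in the submitters' processing notes) are shown because they are the member sequences that the measured regions overlap. Capitals mark the bases inside the accessible region, and both windows lie on the minus strand, at chr11:19018920-19019219 for Meis1 and chr11:90390868-90391167 for Hlf.
Meis1: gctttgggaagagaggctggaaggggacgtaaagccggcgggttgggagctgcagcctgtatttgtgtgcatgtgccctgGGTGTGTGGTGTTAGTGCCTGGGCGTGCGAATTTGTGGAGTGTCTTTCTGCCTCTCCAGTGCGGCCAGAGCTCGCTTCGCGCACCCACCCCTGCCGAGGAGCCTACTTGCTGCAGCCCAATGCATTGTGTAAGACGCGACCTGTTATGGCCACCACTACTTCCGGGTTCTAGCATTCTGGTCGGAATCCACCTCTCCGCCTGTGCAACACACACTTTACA
Hlf: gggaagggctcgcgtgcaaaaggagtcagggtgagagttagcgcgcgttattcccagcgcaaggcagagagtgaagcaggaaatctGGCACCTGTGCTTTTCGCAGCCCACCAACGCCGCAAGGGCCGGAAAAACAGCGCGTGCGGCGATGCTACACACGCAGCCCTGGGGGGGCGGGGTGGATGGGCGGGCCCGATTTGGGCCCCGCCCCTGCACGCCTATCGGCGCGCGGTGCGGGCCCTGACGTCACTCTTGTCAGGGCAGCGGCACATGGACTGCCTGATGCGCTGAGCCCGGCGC
The Meis1 window was 58.3% G or C with 15 CpG and the Hlf window 67.3% with 30 CpG, against medians of 56.3% and 13 over 21263 promoter windows of protein-coding genes. Positions are counted from 0 at the start site. In the Meis1 window the region held bases -170 to 49, with the RUNX motif TGTGGT from -166, the PAR bZIP motif TTACNNAA (the family of HLF) from -46 on the opposite strand and the ETS motif CCGGAA from -11 on the opposite strand; none of these matches shared a base. In the Hlf window the region held bases -164 to 49, with CCGGAA from -125. Searched on both strands, TGTGGT was present in 15.0% of all windows, TTACNNAA in 8.26% and CCGGAA in 18.7%, or 34.5% of the 7659 windows that overlapped a region. The MEIS motif TGACAG (18.7% of windows), the PBX-HOX motif TGATTNAT (2.75%), the GATA motif AGATAA (9.65%) and the NF-κB motif GGANTTTCC (1.28%) had no match in either window. Over the 9 promoter windows of the 7 genes, 2 overlapped a region, against 36% of all windows.

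The Hox genes had no accessible region in the table. The nearest analysed region lay 210177 bp from Hoxa9 (chr6:52223097-52227370), 218277 bp from Hoxa10 (chr6:52231197-52240854) and 242119 bp from Hoxb4 (chr11:96318267-96321638). The same held for the whole of both clusters: 0 of 21 Hox A and B genes had a region, and the nearest region lay 118168 to 289598 bp away. A region was assigned to 48.7% of 21631 protein-coding genes, so a gene without one was common in this table, and nothing about the accessibility of the Hox genes in these cells can be read from it.

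The 8 regions ranged from the start sites to the far ends of large genes. Hlf region 1 (chr11:90390740-90391081) covered the Hlf start site, and Hlf region 2 (chr11:90417883-90418225) lay outside genes, 27137 bp upstream of it. The Mecom region (chr3:30508271-30508793) lay inside the gene, 1227 bp downstream of its upstream start site. Of the Meis1 regions, region 4 (chr11:19018829-19019139) covered the start site, region 3 (chr11:18969962-18970321) and region 2 (chr11:18924930-18925284) lay inside the gene, 48828 and 93862 bp downstream, and region 1 (chr11:18877605-18877852) lay 2576 bp beyond the far end of the gene. The Prdm16 region (chr4:154542659-154542846) lay inside the gene, 94120 bp downstream of its start site. The gene table used here does not place exons, so exon and intron are not given.

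Per length, Mecom was the most accessible of the 8, at 187 CPM per kb over all libraries, above 75.4% of all regions. Hlf region 2 followed with 173 and Meis1 region 4 with 166 CPM per kb. The distal Meis1 regions 2 and 1 had 109 and 115 CPM per kb, and Prdm16 was lowest with 93.0, above 11.2% of regions. Counts were small everywhere: the median library had 30.5 counts at Mecom, 16 at Meis1 region 4, 12.5 at Hlf region 1 and 4 at Prdm16. Prdm16, with 0 to 19 counts, did not pass the filter on low counts, so 7 of the 8 regions entered the main test.

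**Figure D1:**
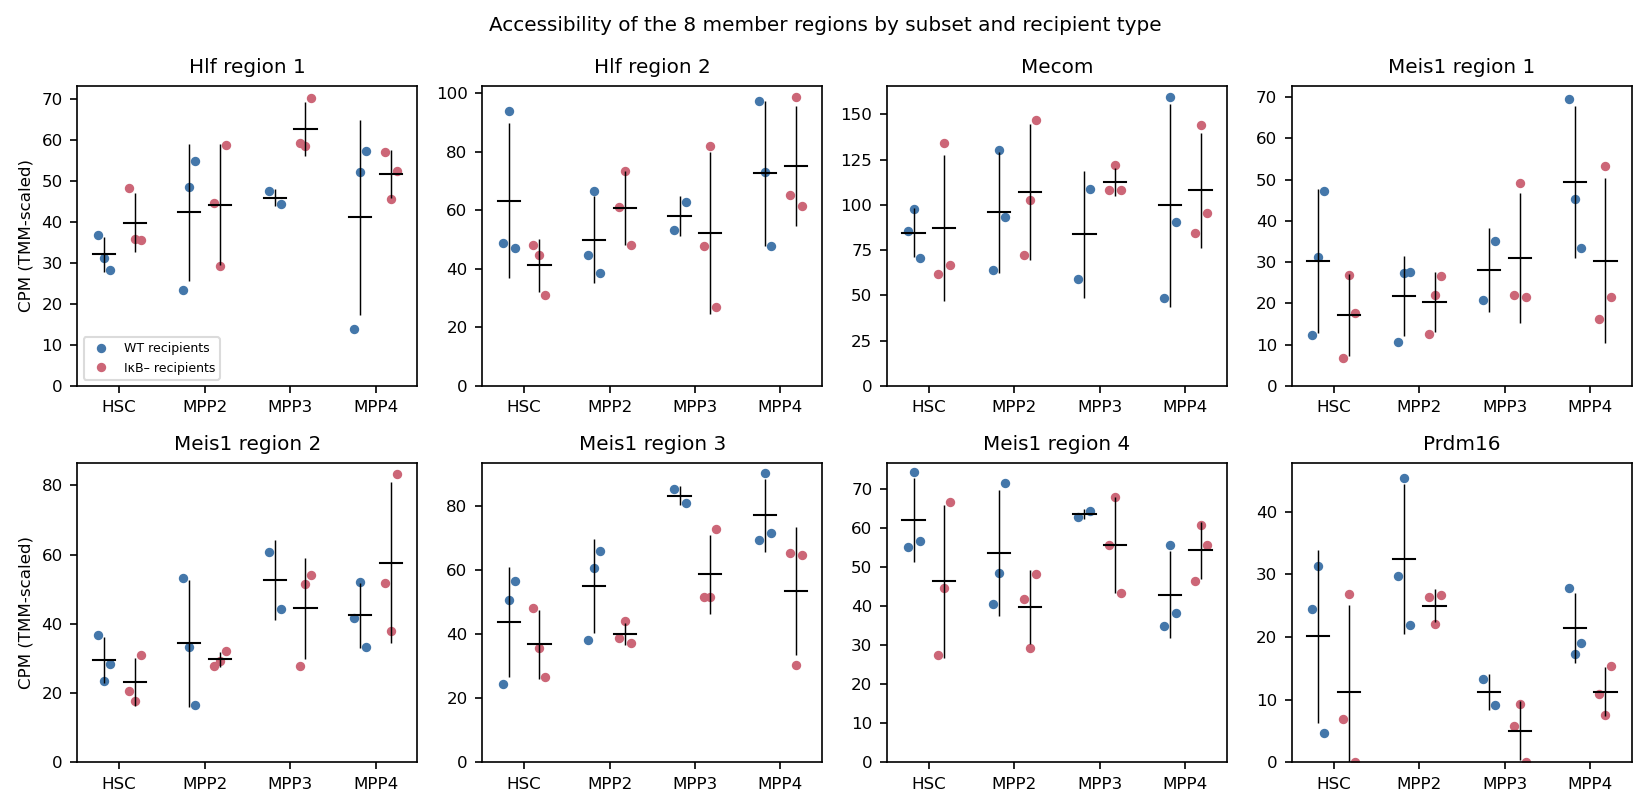
CPM (TMM-scaled) of each of the 8 regions by subset on the horizontal axis, in WT (blue) and IκB– (red) recipients. Points are replicates, lines are the mean and SD of 2 or 3 replicates; Prdm16 is lowest in MPP3, and Meis1 regions 2 and 3 have higher means in MPP3 and MPP4 than in HSC.

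Taken region by region, no member region passed a Benjamini-Hochberg adjusted p of 0.05 in edgeR's quasi-likelihood test for any difference between subsets, where 7.18% of 13325 tested regions did. At an unadjusted p under 0.05 there were 2 of 7 (Meis1 regions 2 and 3), against 18.8% of all regions, and DESeq2 also called 0 after adjustment. In the comparisons of 2 subsets the adjusted count was 0 of 7 each time, against 0.03% of all regions for MPP2 and HSC, 2.57% for MPP3 and HSC, 1.27% for MPP4 and HSC, 8.14% for MPP3 and MPP2, 3.38% for MPP4 and MPP2 and 0% for MPP4 and MPP3. Leaving out 1 replicate moved the counts of all regions behind these shares, from 957 to between 623 and 1478 for the joint test, from 343 to between 175 and 796 for MPP3 and HSC, from 169 to between 59 and 287 for MPP4 and HSC, from 1085 to between 597 and 1583 for MPP3 and MPP2 and from 450 to between 189 and 734 for MPP4 and MPP2. For MPP2 and HSC the count moved from 4 to between 1 and 21. At an unadjusted p under 0.05 the members numbered 0 for MPP2 and HSC (8.31% of all regions), 2 for MPP3 and HSC (14.2%) and 2 for MPP4 and HSC (12%). Among progenitors they numbered 1 for MPP3 and MPP2 (21.8%), 3 for MPP4 and MPP2 (15.6%) and 0 for MPP4 and MPP3 (4.04%). The estimates in MPP3 against HSC were above 0 for 7 of 7 regions, with a median log2 fold change of 0.35 against -0.02 over all regions, and in MPP4 against HSC for 6 of 7, with a median of 0.47 against -0.02. Of these 7 regions 4 belong to Meis1, so they do not stand for 7 independent genes.

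**Figure D2:**
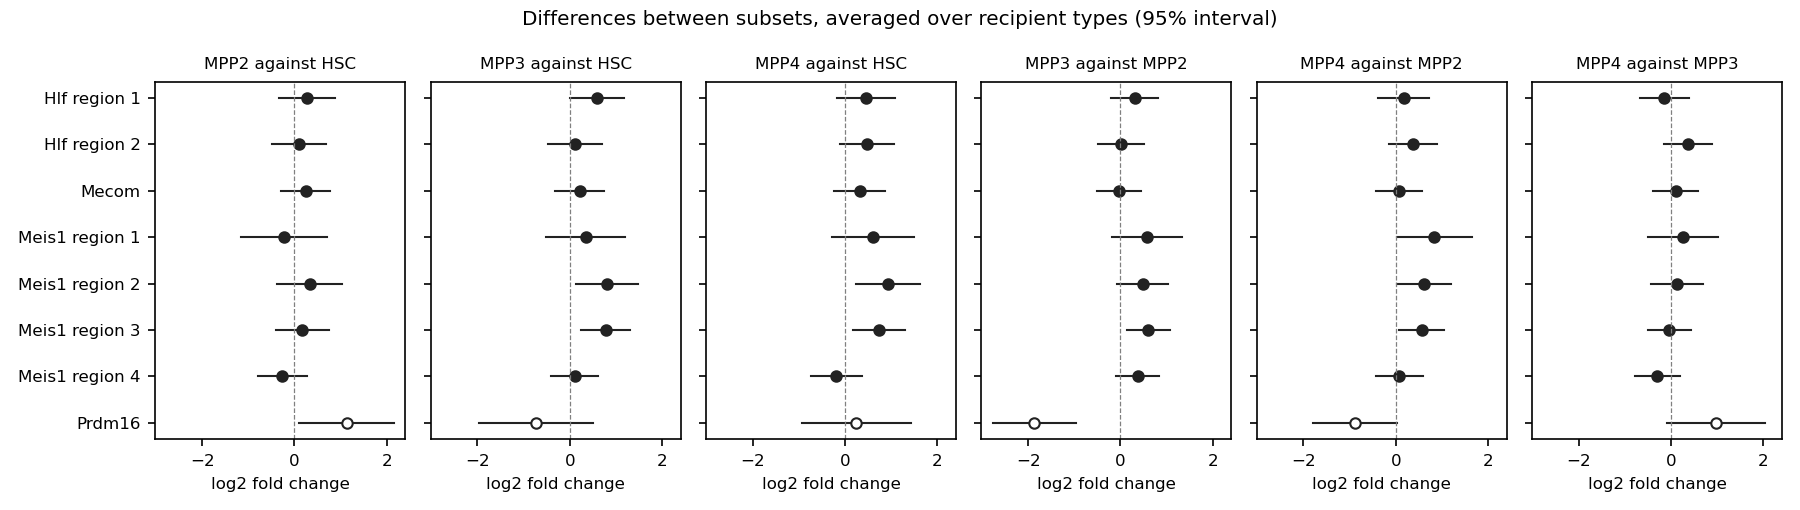
Log2 fold change (horizontal axis) of each region for the 6 comparisons of subsets, averaged over recipient types, with 95% intervals. Filled points come from the main fit and the open Prdm16 point from the fit without a filter; its interval lies below 0 in MPP3 against MPP2, where Meis1 region 3 lies above 0.

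Meis1 differed between subsets when its 4 regions were summed, with higher mean accessibility in MPP3 and MPP4 than in HSC and MPP2. The sum averaged 145 ± 33.3 CPM (SD, n = 6) for HSC and 147 ± 24.1 for MPP2, and 205 ± 30.5 (n = 5) for MPP3 and 204 ± 28.1 (n = 6) for MPP4. The difference between subsets passed the threshold (adjusted p = 0.0387, edgeR over 10369 gene sums, of which 2.84% passed, or 294, a count that ranged from 156 to 633 when 1 replicate was left out), and Meis1 was the 1 of 3 tested member genes to do so.
In WT recipients the 3 HSC replicates had 128, 180 and 189 CPM and the 3 MPP2 replicates 143, 170 and 181. The WT MPP3 replicates had 230 and 225 CPM and the WT MPP4 replicates 216, 243 and 177. Both WT MPP3 values lay above every WT HSC and MPP2 value, and WT MPP4 overlapped them through replicate 3.
In IκB– recipients the HSC replicates had 103, 125 and 142 CPM and the MPP2 replicates 121, 125 and 144. The IκB– MPP3 replicates had 157, 220 and 192 CPM and the MPP4 replicates 180, 182 and 225. There, every MPP3 and MPP4 value lay above every HSC and MPP2 value. The share of all gene sums that separate in this way was not counted.

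**Figure D3:**
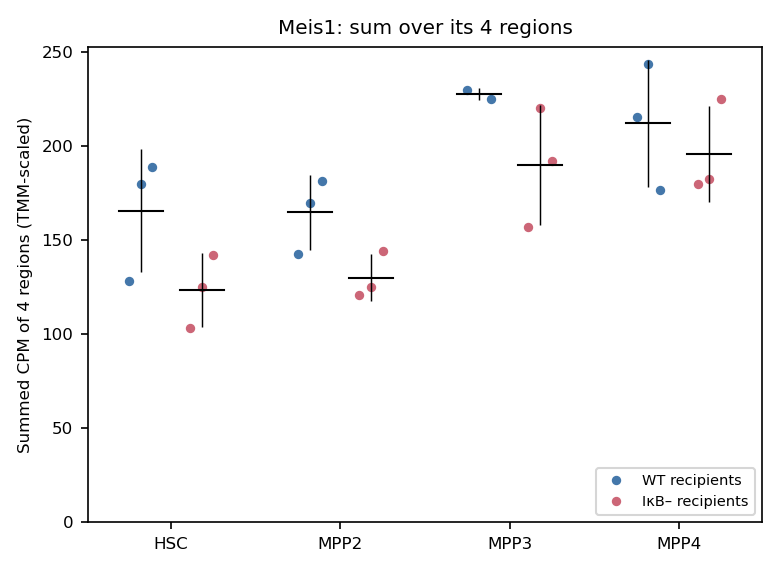
Summed CPM (TMM-scaled) of the 4 Meis1 regions by subset in WT (blue) and IκB– (red) recipients. Points are replicates and lines the mean and SD; MPP3 and MPP4 means lie between 190 and 227 CPM and HSC and MPP2 means between 123 and 166.

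Between pairs of subsets, comparisons of the sums that were added after the joint test was seen, Meis1 was higher in MPP3 than in MPP2 by 0.51 ± 0.15 (log2 fold change ± SE, 95% interval 0.20 to 0.81, adjusted p = 0.0454), where 4.15% of gene sums passed. The estimates were as large for MPP3 against HSC (0.51 ± 0.16, adjusted p = 0.148; 0.964% passed), MPP4 against HSC (0.50 ± 0.17, adjusted p = 0.233; 0.27%) and MPP4 against MPP2 (0.50 ± 0.15, adjusted p = 0.121; 1.1%), and these missed the threshold. HSC and MPP2 were neighbours that did not differ beyond their spread (0.00 ± 0.17, interval -0.35 to 0.35), and so were MPP3 and MPP4 (-0.01 ± 0.15, interval -0.31 to 0.30).
Of 9 other settings 7 kept the joint call. It was lost with limma-voom (adjusted p = 0.106) and with cyclic loess (0.0591), and in 11 of 23 fits that left out 1 replicate: WT HSC 1, WT MPP2 1 or 2, WT MPP3 1 or the summed WT MPP3 2, WT MPP4 2, IκB– MPP2 1 or 2, IκB– MPP3 2 or 3, or IκB– MPP4 3. The adjusted p ranged from 0.0115, without IκB– HSC replicate 3, to 0.0978. The MPP3 against MPP2 call was kept in 14 of those 23 fits, with adjusted p from 0.0180, without IκB– HSC replicate 3, to 0.171, and in 7 of the 9 settings, DESeq2 (0.0960) and cyclic loess (0.159) being the exceptions. Without IκB– HSC replicate 3 the estimates were 0.59 for MPP3 against HSC (adjusted p = 0.0624), 0.58 for MPP4 against HSC (0.142) and 0.50 for MPP4 against MPP2 (0.0668). The depth of every MPP3 library was above that of every HSC library, and the ranges of the other pairs of subsets overlapped; the part of depth in the difference was not tested. Among marker genes, Pf4 was lower in MPP3 and in MPP4 than in MPP2 (-1.29 ± 0.33 and -1.43 ± 0.38, adjusted p = 0.0173 and 0.0469), and Flt3 differed between subsets (joint adjusted p = 0.0399). Csf1r, a myeloid receptor gene, had 1.08 ± 0.37 and 1.26 ± 0.40 in the same comparisons with MPP2 (adjusted p = 0.0906 and 0.127). Cebpe, the other granulocyte and monocyte marker with a region, had 0.05 ± 0.26 and -0.12 ± 0.28 there (adjusted p = 0.946 and 0.921). The lymphoid markers Dntt (0.56 ± 0.32 and 0.56 ± 0.34) and Pax5 (-0.17 ± 0.30 and -0.61 ± 0.35) had opposite signs, and neither passed. The sum of Csf1r and Cebpe, the 2 of 4 granulocyte and monocyte markers with a region, ranged from 61.7 to 96.1 CPM in MPP2 and from 44.5 to 119 in MPP3, that of Pax5 and Dntt, 2 of 6 lymphoid markers, from 57.5 to 104 and from 48.7 to 96.1, and none of these 4 genes was at 0 in a replicate. The part of these markers in the Meis1 difference was not tested. In sorted pools of cells, more cells with an open region and a more open region per cell cannot be told apart.

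Within Meis1, the estimates for MPP3 against HSC were larger at the 2 regions in the gene body away from the start site than at regions 1 and 4, a difference between regions that was not tested. At region 3, HSC had 40.4 ± 13.4 CPM (SD, n = 6), MPP2 47.5 ± 12.5, MPP3 68.5 ± 16.1 (n = 5) and MPP4 65.3 ± 19.5. By replicate, WT HSC had 24.5, 50.8 and 56.6 CPM, WT MPP2 38.3, 60.6 and 66.0, WT MPP3 85.4 and 81.1, and WT MPP4 69.5, 90.4 and 71.6. In IκB– recipients HSC had 48.2, 35.7 and 26.6 CPM, MPP2 38.9, 44.0 and 37.4, MPP3 51.7, 51.5 and 73.0, and MPP4 65.3, 30.4 and 64.7. In both recipient types every MPP3 value lay above every HSC and MPP2 value, and IκB– MPP4 replicate 2 fell among the HSC values. In IκB– recipients the gap was narrow (51.5 against 48.2 CPM, the latter from 7 counts). How many of all regions separate in this way with 2 or 3 replicates per group was not counted.
The log2 fold change of region 3 was 0.78 ± 0.26 in MPP3 against HSC (adjusted p = 0.110) and 0.60 ± 0.23 in MPP3 against MPP2 (adjusted p = 0.0964), and the joint test gave an adjusted p of 0.0703. Without IκB– HSC replicate 3 these were 0.66 (adjusted p = 0.174), 0.62 (0.0581) and a joint adjusted p of 0.0878. Region 2 had its means in the ascending order HSC (26.3 ± 7.01 CPM), MPP2 (32.0 ± 12), MPP3 (47.7 ± 12.6) and MPP4 (50.03 ± 17.9), with 0.94 ± 0.34 for MPP4 against HSC (adjusted p = 0.192), or 1.11 without IκB– HSC replicate 3 (0.138). At region 1, HSC had 23.7 ± 14.6 CPM, MPP2 21.1 ± 7.67, MPP3 29.8 ± 12.4 and MPP4 39.9 ± 20.1, with 0.83 ± 0.40 for MPP4 against MPP2 (adjusted p = 0.295).
The start-site region 4, whose sequence is printed above, had another order. HSC had 54.1 ± 16.5 CPM, MPP2 46.6 ± 14.0, MPP3 58.7 ± 9.75 and MPP4 48.5 ± 10.5, and no pair differed beyond the spread (MPP4 against HSC -0.19 ± 0.27, interval -0.74 to 0.36). MPP2 against HSC was -0.27 ± 0.26, and leaving out 1 replicate moved it to between -0.40 and -0.03. As a description without a test, the share of the Meis1 counts held by region 4 averaged 37.2 ± 7.84% (HSC), 31.3 ± 5.59% (MPP2), 28.9 ± 4.71% (MPP3) and 24.1 ± 5.65% (MPP4). The replicate with the fewest Meis1 counts, IκB– HSC 2, had 14.

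**Figure D4:**
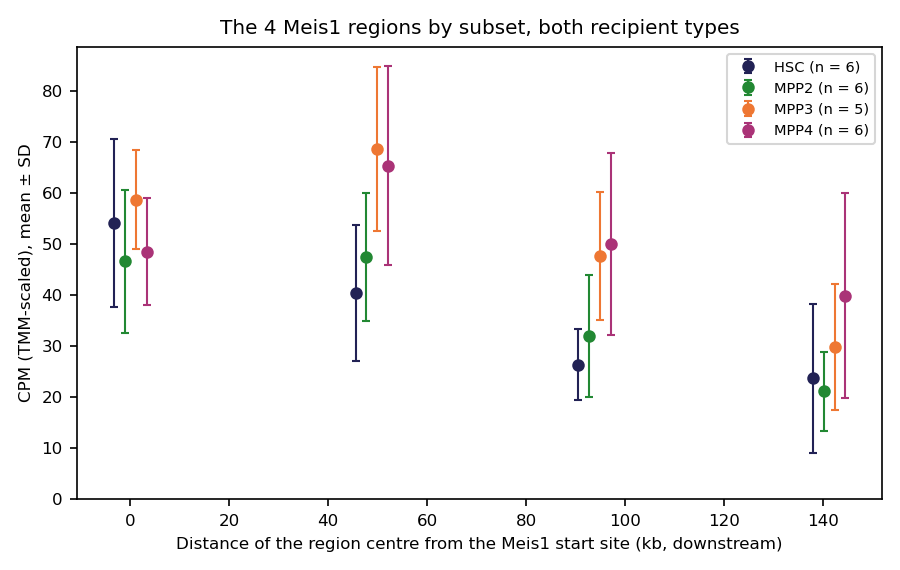
Mean CPM (TMM-scaled) with SD of the 4 Meis1 regions in each subset, both recipient types together, against the distance of the region from the Meis1 start site in kb (subsets are shifted sideways to separate them). The subsets lie together at the start site, and MPP3 and MPP4 have higher means than HSC and MPP2 at the 3 distal regions.

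Prdm16, which encodes a zinc finger protein needed for HSC maintenance, went the other way between MPP2 and MPP3. At its intragenic region, MPP2 had 28.7 ± 8.73 CPM (SD, n = 6) and MPP3 7.52 ± 4.98 (n = 5), while HSC had 15.7 ± 13.3 and MPP4 16.4 ± 7.03. The WT MPP2 replicates had 29.8, 45.5 and 22.0 CPM and the IκB– MPP2 replicates 26.4, 22.0 and 26.7. The WT MPP3 replicates had 13.3 and 9.18 CPM and the IκB– MPP3 replicates 5.74, 9.37 and 0.
The 6 MPP2 values and the 5 MPP3 values did not overlap, and the share of all regions with such a separation was not counted. HSC values lay from 0 into the MPP2 range, with 24.5, 31.3 and 4.72 CPM in WT and 6.88, 26.8 and 0 in IκB– recipients. The 0 values were IκB– HSC replicate 3, where 0 counts allow up to 12.3 CPM of the library total, and IκB– MPP3 replicate 3, where they allow up to 8.25; these limits cover counting error only.
In the fit without a filter on low counts, Prdm16 was lower in MPP3 than in MPP2 by a log2 fold change of -1.86 ± 0.45 (SE; 95% interval -2.77 to -0.96, adjusted p = 0.00461, edgeR), where 8.51% of 13910 regions passed. The joint subset test gave an adjusted p of 0.0283 in that fit, where 7.59% of regions passed. Without IκB– HSC replicate 3 the difference was -1.86 (adjusted p = 0.00143) and the joint adjusted p 0.0110.
The MPP3 against MPP2 difference passed in 23 of 23 fits that left out 1 replicate and the joint test in 15 of 23. The joint call was lost without WT MPP2 1 or 2, WT MPP3 1 or the summed WT MPP3 2, IκB– MPP2 1 or 3, or IκB– MPP3 1 or 3, with adjusted p up to 0.130. Cyclic loess scaling, added after the data were seen, gave -1.30 with an adjusted p of 0.0679 for the difference and 0.196 for the joint test. The joint call was also lost with limma-voom (0.0939). MPP2 against HSC was 1.13 ± 0.51 (adjusted p = 0.558), and ranged from 0.71 without IκB– HSC replicate 3 to 1.90 without IκB– HSC replicate 2.
A gate gene and 1 of 3 megakaryocyte and erythroid markers differed between the same subsets. Slamf1 was lower in MPP3 than in MPP2 (log2 fold change -2.43 ± 0.56, adjusted p = 0.00670), and Pf4, a platelet chemokine gene with the difference given above, had 50.1 CPM in MPP2 and 20.8 in MPP3, while Klf1 had -0.13 ± 0.26 (adjusted p = 0.827) and Itga2b 0.14 ± 0.20 (adjusted p = 0.751). Over the 3 of 5 megakaryocyte and erythroid marker genes with a region (Klf1, Pf4, Itga2b) the summed level ranged from 132 to 312 CPM in MPP2 and from 150 to 243 in MPP3; among these markers only Pf4 was at 0 in a library, 1 of MPP4. Their part in the Prdm16 difference was not tested.

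Hlf, a PAR bZIP factor gene that marks HSC, passed no subset test in either region. At the start-site region 1, the WT HSC replicates had 36.7, 31.3 and 28.3 CPM and the IκB– HSC replicates 48.2, 35.7 and 35.5. The WT MPP3 replicates had 47.4 and 44.4 CPM and the IκB– MPP3 replicates 59.3, 58.6 and 70.3. Within each recipient type MPP3 lay above HSC without overlap, and across types the WT MPP3 values fell below the highest IκB– HSC value. The HSC values rest on 4 to 8 counts each, and such separations were not counted over all regions.
Over both recipient types region 1 averaged 35.9 ± 6.80 CPM (HSC), 43.2 ± 14.1 (MPP2), 56.0 ± 10.4 (MPP3) and 46.4 ± 16.5 (MPP4), and MPP3 against HSC was 0.59 ± 0.29 (adjusted p = 0.354). At region 2 the means were 52.3 ± 21.4, 55.4 ± 13.7, 54.6 ± 20.2 and 74.0 ± 20.4 CPM in the same order. The estimate with the smallest p against HSC there was 0.47 ± 0.29 for MPP4 against HSC (adjusted p = 0.565). The Hlf sum had means from 88.2 ± 20.6 CPM in HSC through 98.7 ± 16.5 and 111 ± 17.3 to 120 ± 13.9 in MPP4, and the joint test gave an adjusted p of 0.534.
Mecom, which encodes the zinc finger factor EVI1, had small estimates with wide intervals. HSC averaged 86.1 ± 26.9 CPM, MPP2 102 ± 32.3, MPP3 101 ± 24.4 and MPP4 104 ± 41.1, with replicates from 48.7 to 160 CPM, both in WT MPP4. The estimates against HSC were 0.24 ± 0.26 for MPP2, 0.22 ± 0.26 for MPP3 and 0.31 ± 0.27 for MPP4, whose intervals reached from -0.31 to 0.86, and the joint adjusted p was 0.882.

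The recipient genotype was compared within the same donor subsets. Averaged over the 4 subsets, no member region passed an adjusted p of 0.05 between IκB– and WT recipients, where 1.73% of 13325 regions did, and 1 of 7 passed unadjusted, against 14.3%. The adjusted count was 0 of 7 in HSC (0% of all regions), MPP2 (0%), MPP3 (0.21%) and MPP4 (0.045%), and the unadjusted count was 0 of 7 in each, against 6.31%, 3.65%, 9.52% and 7.1%. These shares of all regions moved with single replicates: the 231 regions of the mean effect ranged from 53 to 442, and the 28 of MPP3 from 0 to 144. For a recipient effect that differs between subsets both counts were 0, against 0% adjusted and 4.05% unadjusted, and DESeq2 called 0 member regions in each of these comparisons.
The 1 region with an unadjusted p under 0.05 was Meis1 region 3, with 63.2 ± 20.0 CPM (SD, n = 11) in WT and 47.3 ± 14.6 (n = 12) in IκB– recipients, a log2 fold change of -0.43 ± 0.18 (adjusted p = 0.235), or -0.37 without IκB– HSC replicate 3 (0.358). The Meis1 sum was 189 ± 36.2 CPM in WT and 160 ± 39.9 in IκB– recipients (-0.28 ± 0.11, 95% interval -0.51 to -0.05, adjusted p = 0.262, or -0.32 and 0.200 without IκB– HSC replicate 3), where 0.54% of gene sums passed (56, with a range of 14 to 157 when 1 replicate was left out). HSC had an estimate of -0.42 ± 0.26, MPP2 -0.32 ± 0.22, MPP3 -0.28 ± 0.21 and MPP4 -0.11 ± 0.22. All 4 estimates were negative, and the test for a difference between them gave an adjusted p of 0.999, where 0% of gene sums passed.
Prdm16, in the fit without a filter, was at 22.2 ± 11.4 CPM in WT and 13.2 ± 10.1 in IκB– recipients (-0.83 ± 0.37, adjusted p = 0.271, or -0.62 and 0.423 without IκB– HSC replicate 3), where 1.68% of regions passed. Hlf region 1 had the opposite sign, with 39.8 ± 14.1 CPM in WT and 49.6 ± 12.1 in IκB– recipients (0.31 ± 0.20, adjusted p = 0.510). Hlf region 2 had -0.71 ± 0.45 in HSC, its smallest p among the subsets (adjusted p = 0.867), with 93.8 CPM in WT replicate 2. Leaving out 1 replicate moved this estimate to between -0.90, without WT HSC replicate 3, and -0.27, without WT HSC replicate 2. Mecom had 0.11 ± 0.18 (interval -0.25 to 0.47, adjusted p = 0.844).
Slamf1 was lower in IκB– recipients (-1.95 ± 0.41, adjusted p = 0.0163), and the summed megakaryocyte and erythroid markers had 210 ± 50.8 CPM in WT (141 to 312) and 172 ± 34.3 in IκB– recipients (123 to 232). None of these markers passed alone: Itga2b had -0.40 ± 0.16 (adjusted p = 0.248), Pf4 -0.31 ± 0.28 (0.711) and Klf1 -0.15 ± 0.21 (0.833). The summed granulocyte and monocyte markers had 96.9 ± 28.5 CPM in WT and 79.3 ± 22.3 in IκB– recipients. The lymphoid sum had 67.5 ± 20.0 and 65.9 ± 18.4, and the endothelial marker Cdh5 27.4 ± 12.3 and 31.0 ± 14.9. The part of Slamf1 and of these markers in the recipient estimates of Meis1 and Prdm16 was not tested.

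**Figure D5:**
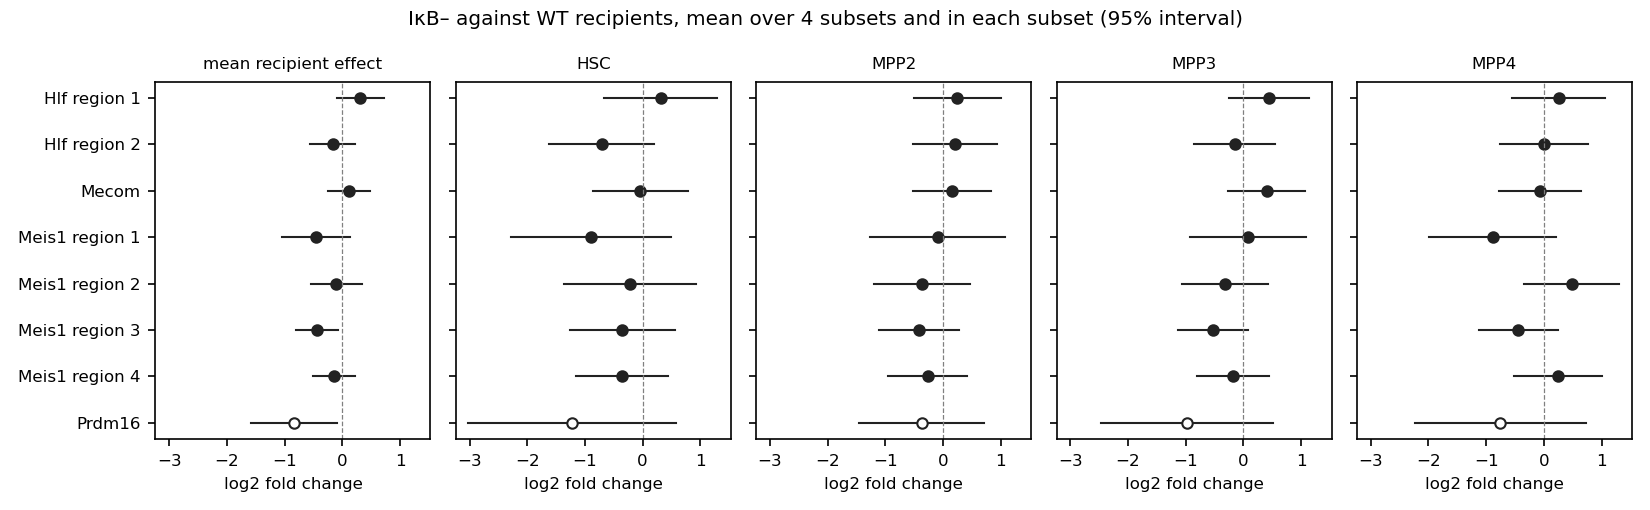
Log2 fold change (horizontal axis) of each region in IκB– against WT recipients, averaged over the subsets (left) and in each subset, with 95% intervals. Filled points come from the main fit and the open Prdm16 point from the fit without a filter; in the mean over subsets only the intervals of Meis1 region 3 and Prdm16 exclude 0, and neither passed after adjustment.

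Other genes of the same programme were read from 2 lists. Of 15 Hox cofactors and upstream regulators, such as Kmt2a, which maintains Hox expression, 9 had a region and all 9 were tested. The joint subset test called 0 of the 9 in edgeR, against 2.84% of all gene sums, with 2 at an unadjusted p under 0.05, against 14.3%. The mean recipient effect called 0, against 0.54%, with 1 unadjusted, against 12.3%. Their median log2 fold change in IκB– recipients was -0.11, against 0.00 over all gene sums.
Of 25 other self-renewal genes, 18 had a region and 16 were tested, and the joint subset test called 2, against 2.84% of all gene sums, with 4 at an unadjusted p under 0.05, against 14.3%. At Tcf15, which marks quiescent HSC, HSC had 58.9 ± 29.2 CPM (SD, n = 6), MPP2 44.6 ± 18.8, MPP3 14.3 ± 13.0 (n = 5) and MPP4 17.0 ± 11.6 (adjusted p = 0.00240). It was lower in MPP3 than in MPP2 by -1.64 ± 0.36 (adjusted p = 0.00503). Ikzf2, which encodes Helios, had higher means in MPP3 and MPP4, as the Meis1 sum had: HSC had 97.5 ± 19.6 CPM, MPP2 110 ± 10.4, MPP3 153 ± 29.96 and MPP4 145 ± 35.6 (adjusted p = 0.0435).
The mean recipient effect called 1 of the 16, Gfi1b, which encodes a repressor active in HSC and in megakaryocyte and erythroid cells, at -0.91 ± 0.21 in IκB– recipients (adjusted p = 0.0337), where 0.54% of all gene sums passed. At an unadjusted p under 0.05 there were 6 of 16, 5 lower and 1 higher in IκB– recipients, against 12.3% of all gene sums. The median of the 16 was -0.12, and 4 of 16 lay above 0.

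The genes whose summed accessibility followed the members most closely were ranked over 23 replicates and 1912 genes with at least 50 counts on average, as a description in which all points share library and depth. Meis1 was most like Pip4k2a (Pearson r of log2 CPM 0.72), Urb2 (0.68) and Rnf220 (0.68), against a median r of -0.02. Hlf was most like Abca1 (0.74), Znrf1 (0.71) and Agpat3 (0.69), and Mecom most like Ankrd10 (0.75), Gtf2i (0.75) and Hdgf (0.71). No gene of the lists above was among them, but genes averaging under 50 counts could not enter the ranking. Hlf averaged 35.8 counts at 104 CPM, and the list genes Tcf15 (34.5 CPM), Gfi1b (39.3 CPM) and Kmt2a (102 CPM) had lower mean CPM than Hlf.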

How the data were processed

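Accessibility was measured by ATAC-seq in 24 libraries. The authors deposited unnormalized counts for each region, 1 column per library; whether reads or fragments were counted is not given in the sources used here. The submitters' processing notes name Bowtie2, SAMtools, Picard, MACS2 2.1.0 and deepTools and the build mm10; the counter, the filters and whether peaks were called on pooled libraries are not given in the sources used here. Regions were assigned to genes with RefSeq gene models of GRCm38.p6. Regions on the mitochondrial genome stayed in the library sizes and tests; they held nearly the same count in every library, so their share fell with depth.

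Counts were fitted with edgeR 4.0.16 in R 4.3.3 (filterByExpr, TMM, robust quasi-likelihood fit of 8 group means on 23 replicates, 15 residual degrees of freedom), with Benjamini-Hochberg adjustment over 13325 regions, and over 10369 genes after summing the counts of each gene's regions. Contrasts average both recipient types or the 4 subsets. CPM are TMM-scaled, and fold changes are given with the SE from the F statistic. The code was tested on simulated data. Alternatives were other scalings, DESeq2 1.42.0, limma-voom (limma 3.58.1), no filter, 24 separate libraries (WT MPP3 replicates 2 and 3 kept apart), replicate blocks fitted on those 24 libraries, a 10 kb rule, and leaving out each replicate.

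The members, lists and tests were chosen with earlier results of these data known. Values are given for all member genes, for the region nearest each start site, for that with the highest CPM per kb and for the member region with the smallest p in each contrast; list genes are named where called, and 3 most similar genes are named per member. Kmt2a and the marker genes were named in addition. Values of 1 list gene are not reported here. The limits given for 0 counts cover counting error only, since reads without molecular identifiers are not independent molecules.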

Additional observations from a re-analysis of the deposited data

How the results depend on the processing

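Of the Meis1, Hlf and Prdm16 values followed through the alternatives, none changed sign. Both replicate blocks were fitted on 24 separate libraries, so they differ from the main values in 2 choices. In the joint subset test of regions, where 0 members were called, 1 was called with total counts (Meis1 region 3), with no filter (Prdm16), with 24 separate libraries (Meis1 region 3, adjusted p = 0.0446) and with the replicate block (Meis1 region 3, adjusted p = 0.0144), and 2 with the block within recipient type (Meis1 regions 2 and 3). In MPP3 against HSC each of the 2 replicate blocks called 1, Meis1 region 3 (adjusted p = 0.0348 and 0.0275, and 0.0757 with 24 libraries without a block). In MPP3 against MPP2 limma-voom called 1 (Meis1 region 3), no filter 1 (Prdm16), and each block 1 (Meis1 region 3, adjusted p = 0.0300 and 0.0203). In the joint test of gene sums, where 1 member was called, limma-voom and cyclic loess each called 0 and no filter 2 (Meis1 and Prdm16). Leaving out 1 replicate gave 0 to 1 called members in the joint test of regions, in MPP3 against MPP2 and in the joint test of gene sums. The other member counts over regions stayed at 0 in the alternatives run, as did those over gene sums for the mean recipient effect and for its difference between subsets. Between pairs of subsets, the Meis1 sum was also called in MPP3 against HSC with total counts (adjusted p = 0.0467) and with both blocks (0.0218 and 0.0190), and in MPP4 against MPP2 with both blocks (0.0411 and 0.0338); 24 libraries without a block gave 0.0868 and 0.102. Its joint adjusted p was 0.00174 and 0.00121 with the blocks.

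The replicate numbers were not taken as pairs, so the main p-values take no account of any pairing by number. Within a recipient type 27 of 36 same-numbered pairs of samples correlated above 0.1 in their deviations from the group means (0.0286 to 0.337). Within a subset 7 of 12 did, and 18 of 36 of the other pairs. Best with their own number were 33 of 36 within a recipient type, 10 of 12 within a subset and 28 of 36 others. Over all regions the joint count was 957, 1078 with 24 libraries without a block, 1938 with the replicate block, 2159 with the block within recipient type, 519 with limma-voom and 549 with cyclic loess. For MPP3 against MPP2 these counts were 1085, 1294, 2192, 2439, 1659 and 344, and for gene sums 294, 376, 1108, 1294, 157 and 111.

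Small counts limit every value: the Prdm16 region had a median of 4 counts per library. Under the 10 kb rule Hlf region 2 was no longer a member. Cyclic loess was chosen after seeing the data.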
